A study of Cricetulus griseus with 27 samples.

Results

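Both arms of miR-324 were followed through Chinese hamster ovary (CHO) cells and the vesicles they shed: mmu-miR-324-5p, from the 5′ side of the hairpin, and cgr-miR-324-3p, from the 3′ side. They are 2 of the 4815 entries of the count table, matched by name, and 924 entries had at least 1 count. The pair was chosen by measured counts of these libraries, in which mmu-miR-324-5p stood higher in exosomes than in microparticles (MPs) of the standard culture. The exact values behind the choice are not recorded. Values of the 9 standard libraries are therefore given as a description with no test of the pair. The table names its entries by species (mmu mouse, cgr Chinese hamster, hsa human, rno rat), while all reads came from hamster cells. Both entries carry the hairpin identifier MI0000594 in the table, and 3 more entries are named for the same arms: cgr-miR-324-5p, mmu-miR-324-3p and hsa-miR-324-3p.

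The 27 libraries came from CHO-K1, an immortalised ovary-derived line widely used to make recombinant proteins. They form 9 groups of 3, with exosomes (small vesicles of endosomal origin), MPs (larger vesicles budding from the plasma membrane) and cells each taken from 3 cultures. The osmotic culture began with 60 mM added NaCl, or 120 mOsm/L extra, the ammonia culture with 9 mM added NH4Cl, and the standard culture with neither. All were shaken cultures of 15 mL with 6 mM glutamine, harvested on day 3. The 18 stressed libraries, prepared by TruSeq Small RNA chemistry, shared a pool, and the 9 standard ones, prepared by NextFlex Combo-Seq, shared another, so stress cannot be told apart from kit and pool. Totals ran from 26516 to 158836 counts in osmotic exosomes, 378397 to 1103990 in osmotic MPs, 8219782 to 10374430 in osmotic cells, 116689 to 203816 in ammonia exosomes, 1962086 to 2967003 in ammonia MPs, 5236151 to 6841978 in ammonia cells, 2284857 to 2726446 in standard exosomes, 818539 to 1253633 in standard MPs and 132154 to 180764 in standard cells. The labels call the replicates biological without naming separate cultures, so error here is the spread between these libraries. No miRNA defines CHO cells. The commonly abundant miR-21-5p and miR-92a-3p together reached 49962 to 295584 CPM (counts scaled to a library total of 1000000) per library. Of 23 entries that mark other cell types 15 had a count, and both entries for red cells made up most of them, at 1295 to 2099 CPM in standard libraries and 0.906 to 9460 CPM in stressed ones. Their part in the results was not tested.

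A microRNA hairpin is cut by Dicer into a duplex, and usually one strand is loaded into an Argonaute protein while the other is degraded. For miR-324 either arm can be kept. In human cells the enzymes TUT4 and TUT7 add uridines to the miR-324 precursor, which shifts the Dicer cut and moves the balance between the arms towards 3p. The 5p arm is known for lowering Hedgehog signalling in human cerebellar tumour cells by targeting SMO and GLI1, and for targeting a potassium channel mRNA in mouse neurons.

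In standard culture both arms stood highest in exosomes. Levels are given as CPM, which are shares of each library. More copies per vesicle and more vesicles of one kind therefore cannot be told apart. The 5p arm, mmu-miR-324-5p, had 28.4, 46.2 and 163 CPM in exosomes, from 65, 126 and 402 counts in replicates 1, 2 and 3. It had 17.1, 17.5 and 18.3 CPM in MPs, from 14, 21 and 23 counts, and 22.7, 16.6 and 13.3 CPM in cells, from only 3, 3 and 2 counts. Every exosome library lay above every MP and cell library, and the ranges of MPs and cells overlapped. Exosomes replicate 3 held 402 of the 593 exosome counts and stood well apart from the others.

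The 3p arm, cgr-miR-324-3p, was the more abundant in every standard library. It had 234, 299 and 441 CPM in exosomes, from 534, 815 and 1087 counts, and 217, 199.7 and 200.2 CPM in MPs, from 178, 239 and 251 counts. In cells it had 114, 94.0 and 120 CPM, from 15, 17 and 18 counts. The 3 fractions did not overlap, in the order exosomes, MPs and cells, and exosomes replicate 3 was again the highest. How many of all entries also showed no overlap was not counted. On average the 3p entry ranked 114th of 657 detected entries in exosomes, 126th of 652 in MPs and 162nd of 566 in cells, whereas the 5p entry ranked 183rd, 268th and 277th in the same fractions.

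**Figure D1:**
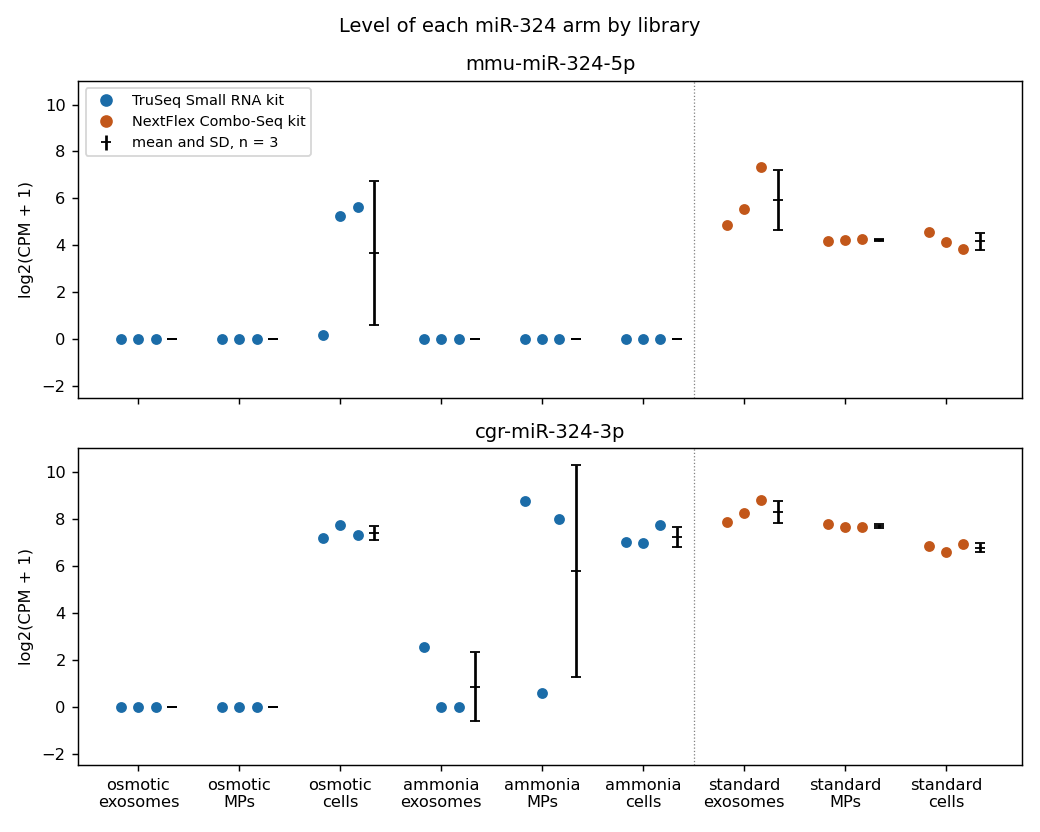
Level of mmu-miR-324-5p (top) and cgr-miR-324-3p (bottom) in every library, as log2(CPM + 1), with 1 point per library and the mean and SD of 3 libraries in black. Both arms were highest in standard exosomes among the standard fractions, and neither had a count in osmotic exosomes or osmotic MPs.

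The fold changes after scaling by the trimmed mean of M-values (TMM) in edgeR were of the same order. For the 5p arm, exosomes against cells gave a log2 fold change of +1.92 ± 0.69 (SE, 3 libraries per group), exosomes against MPs +1.93 ± 0.53 and MPs against cells −0.01 ± 0.75. Without standard exosomes replicate 3, the exosome values were +0.99 against cells and +1.00 against MPs. For the 3p arm the log2 fold changes were +1.35 ± 0.29 for exosomes against cells, +0.49 ± 0.25 for exosomes against MPs and +0.86 ± 0.29 for MPs against cells. Of the 351 entries tested in this culture 51.6% passed an adjusted p of 0.05 (edgeR's quasi-likelihood test with Benjamini-Hochberg adjustment) for exosomes against cells, 29.6% for exosomes against MPs and 31.3% for MPs against cells. The median log2 fold change of all entries was +0.09, +0.01 and +0.07 in those comparisons.

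The reads of the 5p arm were divided between entries of different species. In standard exosomes cgr-miR-324-5p had 87, 167 and 179 counts beside the 65, 126 and 402 of mmu-miR-324-5p, so that the mouse-named entry held 42.8%, 43.0% and 69.2% of 5p counts. In standard MPs it held 14 of 28, 21 of 39 and 23 of 42 counts, and in standard cells 3 of 4, 3 of 6 and 2 of 2 counts. The division was close to even in MPs. Among the exosome libraries it was least even in replicate 3, where the mouse-named entry was higher than the hamster-named one. With both 5p entries summed, the level was 137 ± 88.2 CPM in exosomes, 33.4 ± 0.810 CPM in MPs and 25.6 ± 10.7 CPM in cells (SD, n = 3 each).

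In stressed cells the division changed from library to library. In osmotic cells mmu-miR-324-5p had 1, 311 and 512 counts in replicates 1 to 3, and cgr-miR-324-5p had 75, 51 and 1. The library with almost no counts under one name thus held them under the other, in replicates 1 and 3. In ammonia cells mmu-miR-324-5p had no count in any of the 3 libraries, while cgr-miR-324-5p had 0, 229 and 0. The 3p arm was divided less: beside the 4561 counts of cgr-miR-324-3p in osmotic cells, mmu-miR-324-3p had 134, of which 126 were in replicate 3, and hsa-miR-324-3p had none. In ammonia cells hsa-miR-324-3p had 47 counts, all in replicate 2. The sources used here do not say how reads were allotted to near-identical entries, and single 5p entries are uncertain for that reason.

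**Figure D2:**
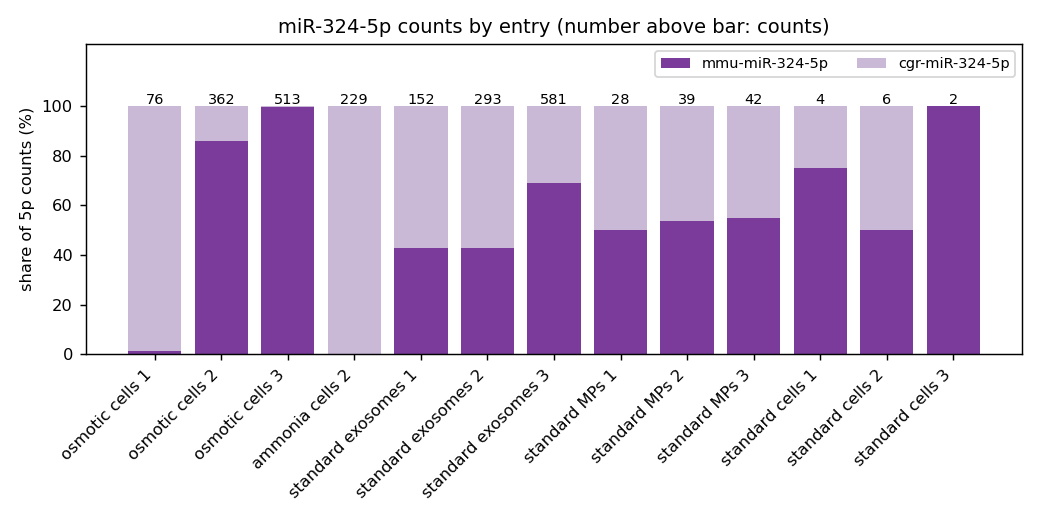
Share of miR-324-5p counts (percent) under the mouse-named and the hamster-named entry, for each library with at least 1 such count, with the number of counts above each bar. The mouse-named entry held 1.32% of 76 counts in osmotic cells replicate 1 and 99.8% of 513 in replicate 3, and between 42.8% and 69.2% in standard exosomes and MPs.

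The arm ratio was taken within each library, so it needs no scaling between libraries. It compares reads of different sequences, which a kit may capture unequally, and its absolute level was therefore not compared across kits. In standard exosomes the 5p entry made up 10.9%, 13.4% and 27% of the counts of both arms, in standard MPs 7.29%, 8.08% and 8.39%, and in standard cells 16.7%, 15% and 10%. The 3p arm dominated in all 9 libraries. Exosomes and MPs did not overlap, MPs lay below cells without overlap, and exosomes and cells overlapped. Among 44 miRNAs with both arms tested, miR-324 included, exosomes and MPs did not overlap for 11 towards 5p and 14 towards 3p. For MPs and cells this held for 7 towards 5p and 12 towards 3p, so a lack of overlap was common. With counts summed over 3 libraries the 5p share was 19.6% in exosomes (exact 95% binomial interval 18.2 to 21.0), 7.99% in MPs (6.12 to 10.2) and 13.8% in cells (6.15 to 25.4). These intervals cover counting error only and leave out the spread between libraries. The interval for exosomes holds none of the 3 library shares. The wide interval in cells comes from 58 counts in all.

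As log2 of 5p over 3p, with 0.5 added to each count, the ratio was −2.38 ± 0.84 in exosomes, −3.51 ± 0.10 in MPs and −2.45 ± 0.39 in cells (SD, n = 3 each). Exosomes minus MPs gave 1.12, or 0.65 without standard exosomes replicate 3, and MPs minus cells −1.05. Exosomes and cells differed by 0.07, less than the spread between replicates. With all entries of an arm summed, the 5p share was 20.9%, 25.5% and 34.1% in exosomes, 12.6%, 13.7% and 14.05% in MPs and 20%, 26.1% and 10% in cells. Exosomes and MPs still did not overlap, with a difference of 1.20 in log2 ratio, whereas MPs and cells now overlapped, at −0.61.

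**Figure D3:**
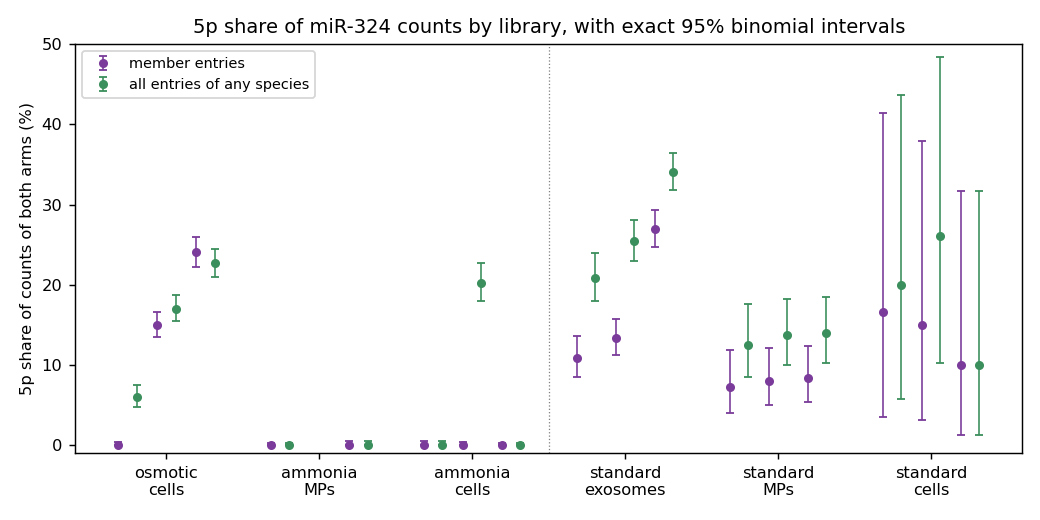
Share of 5p counts (percent) among the counts of both arms, 1 pair of points per library with at least 10 counts, for the member entries (purple) and for all entries of any species (green), with exact 95% binomial intervals that cover counting error only. Standard MPs sat between 7.29% and 8.39% by the member entries, below the 10.9% to 27% of standard exosomes, and the mouse-named 5p entry had no count in ammonia libraries.

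Other miRNAs gave a background for this shift. In the standard fit 44 miRNAs, miR-324 included, had both arms among the entries tested. Between exosomes and MPs 20 of them moved towards 5p and 24 towards 3p, with a median change of −0.39 in log2 ratio. The change of miR-324, +1.12, was the 6th from the top, and 17 miRNAs changed more in size. Between MPs and cells 21 moved towards 5p and 23 towards 3p, the median was −0.22, and 22 changed more than the −1.05 of miR-324. Between exosomes and cells 16 moved towards 5p and 28 towards 3p, with a median of −0.72 and a range of −6.44 to +4.41, and all 43 others changed more in size than miR-324. The largest changes towards 5p there were those of miR-30b (+4.41), miR-30e (+3.80) and miR-139 (+3.50), and towards 3p those of miR-27a (−6.44), miR-92a (−3.86) and miR-130b (−3.54). These are descriptions over libraries that were in view when miR-324 was chosen.

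**Figure D4:**
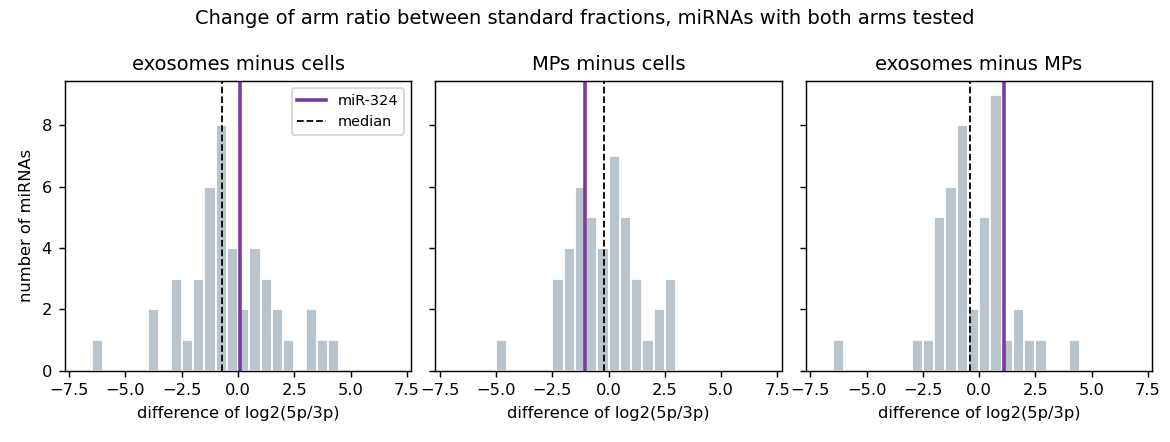
Number of miRNAs by their change of log2(5p/3p) between standard fractions, for the 44 miRNAs with both arms tested, with miR-324 in purple and the median dashed. For miR-324 the change was +0.07 between exosomes and cells, −1.05 between MPs and cells and +1.12 between exosomes and MPs.

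In osmotic culture both arms were found in cells and in no vesicle library. The 3p arm had 144, 212 and 156 CPM in cells, from 1184, 1759 and 1618 counts, and 0 counts in each exosome and each MP library. Over a group, finding none still permits 3 counts, or 1.22 CPM over the 3 MP libraries and 12.7 CPM over the 3 exosome libraries. Against these limits the 3p arm was at least 139-fold lower in MPs than in cells and at least 13.3-fold lower in exosomes than in cells. These bounds cover only the counting error of the group at 0. In MPs the fall passed the test (edgeR, adjusted p = 0.0106), in a comparison where 51.5% of 332 entries passed and 48.5% passed downwards. At 0 in osmotic MPs, the 3p entry passed the filter on low counts through other groups, so the test could only come out lower. The direction of the call is therefore no separate support. Exosomes and MPs of this culture, both at 0 for both arms, were not compared for miR-324, and 2.41% of entries passed there. The call was lost without osmotic MPs replicate 2 (adjusted p = 0.0539), without osmotic MPs replicate 3 (adjusted p = 0.0572) and without a filter on low counts (adjusted p = 0.0845), all by edgeR.

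Osmotic exosomes against cells did not pass for the 3p arm (edgeR, adjusted p = 0.159). There 0% of entries passed by edgeR, 79 had an unadjusted p under 0.05 and 31 passed by DESeq2. The 5p arm had 0.122, 37.5 and 49.4 CPM in osmotic cells and no count in vesicles. It was too rare in the stressed libraries for the edgeR fit. With counts summed over 3 libraries, the limits place MPs at least 25.1-fold and exosomes at least 2.40-fold lower than cells. Osmotic cells replicate 1, at 0.122 CPM from 1 count, lay below both limits, so neither bound holds for that library. An exact two-sided permutation test of the 5p level gave p = 0.1 for MPs against cells and p = 0.1 for exosomes against cells, the smallest value that 3 against 3 libraries allow. Both results rest on that 1 count lying above 0.

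In ammonia culture the 3p arm was found in cells and in MPs. It had 438, 0.510 and 255 CPM in MPs, from 1299, 1 and 656 counts, and 127, 124.8 and 209 CPM in cells, from 733, 854 and 1096 counts. Of the MP libraries 2 lay above all cell libraries and replicate 2, with a total of 1962086 counts, held a single count. Exosomes had 1, 0 and 0 counts, or 2.11 CPM over the 3 libraries (exact 95% interval 0.0534 to 11.7), against 150 CPM in cells over 3 libraries (145 to 156). These intervals cover counting error only, and no cell library lay within the one for cells. By edgeR, MPs against cells gave a log2 fold change of +0.87 ± 1.63 (adjusted p = 0.818), where 32.5% of entries passed. Exosomes against cells gave an adjusted p of 0.0637 by edgeR, where 9.04% passed, and exosomes against MPs 0.128 by edgeR, where 0.301% passed. Without ammonia MPs replicate 2 exosomes against MPs reached an edgeR adjusted p = 0.0472, and without ammonia MPs replicate 1 the log2 fold change of MPs against cells was −0.02.

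The mouse-named 5p entry had no count in any of the 9 ammonia libraries. Over ammonia cells that is 0 of 2683 counts of both arms, which allows a 5p share of up to 0.112%, and over ammonia MPs 0 of 1956, which allows up to 0.153%. In osmotic cells the same share was 0.0844%, 15% and 24%. With all 5p and 3p entries summed it was 6.03%, 17% and 22.7% in osmotic cells and 0%, 20.2% and 0% in ammonia cells. The groups overlapped by that sum, and by the member entries osmotic cells replicate 1 stood above the ammonia libraries by a single count. With the 5p entry at 0 in all ammonia libraries, a log2 arm ratio there would be set by the count added to it, so the ratio was not compared between MPs and cells or with osmotic cells. The other stressed vesicle groups held too few counts for a ratio.

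Osmotic and ammonia cultures were compared within a fraction, in 1 kit and 1 pool. In cells the 3p arm averaged 171 ± 36.5 CPM under osmotic and 154 ± 48.1 CPM under ammonia stress (SD, n = 3 each), with a log2 fold change of −0.18 ± 1.61 that did not pass (edgeR, adjusted p = 0.997). In that comparison 0% of entries passed by edgeR and 0 by DESeq2, and 13 had an unadjusted p under 0.05 by edgeR. In MPs the 3p arm was at 0 under osmotic stress and averaged 231 ± 220 CPM under ammonia stress. With counts summed over the libraries of a group, osmotic MPs were at least 213-fold lower. Ammonia MPs replicate 2, at 0.510 CPM from 1 count, lay below the limit of 1.22 CPM in osmotic MPs, so the bound does not hold for it. Here too the entry was kept through other groups, and the test could only come out lower in osmotic MPs. This fall passed (edgeR, adjusted p = 0.0296), as did 19.3% of entries, or 15.4% downwards. It was lost when any osmotic MP library was left out (edgeR, adjusted p = 0.0527, 0.0863 and 0.0751 without replicates 1, 2 and 3). It was also lost with a block for replicate number (edgeR, adjusted p = 0.0609). In exosomes the 3p arm had 0 counts in osmotic and 1 count in ammonia libraries, too few to compare, and 0% of entries passed (61 at an unadjusted p under 0.05 by edgeR, 28 passed by DESeq2). The 5p entry averaged 29.0 ± 25.7 CPM in osmotic cells and was at 0 in ammonia cells (exact permutation p = 0.1). For osmotic cells replicate 1 that order rests on 1 count. With both 5p entries summed the level was 34.1 ± 21.7 CPM in osmotic cells and 11.2 ± 19.3 CPM in ammonia cells (exact permutation p = 0.2).

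Stressed and standard cultures are set side by side without a test of the pair, because the kit changed with the culture. The edgeR fit of all entries gives shares of calls as background. Calls of the pair itself, passed or not, are not given. In cells the 3p arm averaged 171 ± 36.5 CPM in osmotic, 154 ± 48.1 CPM in ammonia and 109 ± 13.3 CPM in standard culture. Every stressed cell library lay above every standard one. There 18.1% (osmotic) and 24.5% (ammonia) of 420 entries passed by edgeR. Such shares count edgeR calls, and the share of entries without overlap was not computed. The TMM log2 fold change against standard cells was +1.41 ± 1.24 in osmotic and +1.61 ± 1.24 in ammonia cells (SE, from the fit of all 27 libraries), and +0.09 and +0.11 with relative log expression (RLE) scaling. The median of all entries under TMM was +1.11 in osmotic and +0.84 in ammonia cells. In MPs the 3p arm was at 0 in osmotic culture, averaged 231 ± 220 CPM in ammonia culture, and 206 ± 10.1 CPM in standard culture. That put osmotic MPs at least 167-fold lower than standard MPs, where 46.2% of entries passed. Ammonia MPs overlapped with standard MPs, where 44.8% of entries passed. In exosomes it was at 0 in osmotic culture and averaged 1.64 ± 2.83 CPM in ammonia and 324 ± 106 CPM in standard culture. Osmotic exosomes were at least 25.6-fold lower than standard ones, where 16.2% of entries passed. Ammonia exosomes did not overlap with standard ones, where 33.1% of entries passed. The 5p entry averaged 29.0 ± 25.7 CPM in osmotic cells and 17.5 ± 4.78 CPM in standard cells, with overlapping ranges and a log2 fold change of +1.49 ± 1.36, and 0.21 to 0.97 under other settings. In ammonia cells, at 0, it was at least 103-fold lower than in standard cells, a bound against 8 counts in standard cells. With both 5p entries summed the counts over 3 libraries came to 12.8 CPM in ammonia cells, from 229 counts in 1 library, and 25.9 CPM in standard cells, from 12 counts.

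Across the 9 groups the mean level of the 3p arm ran from standard exosomes through ammonia MPs, standard MPs, osmotic cells, ammonia cells and standard cells to ammonia exosomes, and osmotic exosomes and MPs were at 0. Ranges overlapped between the neighbours standard exosomes and ammonia MPs, ammonia MPs and standard MPs, standard MPs and osmotic cells, and osmotic and ammonia cells. They did not overlap between ammonia and standard cells or between standard cells and ammonia exosomes. The 5p entry ran from standard exosomes through osmotic cells and standard MPs to standard cells, and the other 5 groups were at 0. Its ranges overlapped between each pair of neighbours among the 4 groups with counts.

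Few other miRNAs known to act on the Hedgehog pathway could be followed. In human cerebellar cells miR-125b and miR-326 also lower the receptor component SMO. Of 5 entries named miR-125b-5p or miR-326, cgr-miR-125b-5p and cgr-miR-326 were abundant enough to test. Neither passed in the 3 comparisons of standard culture (edgeR), where 29.6% to 51.6% of entries did. The abundant cgr-miR-125b-5p averaged 7038 ± 1006 CPM in standard exosomes, 3995 ± 846 CPM in standard MPs and 5300 ± 3211 CPM in standard cells. In the stressed fractions and between stresses 1 call was made, where 0% to 51.5% of all entries passed. In ammonia MPs against cells, where 32.5% of all entries passed, cgr-miR-326 fell, with 1 count over 3 MP libraries against 528 over 3 cell libraries (edgeR, adjusted p = 0.0154). In the stressed libraries cgr-miR-326 passed the filter on low counts through the cell groups. The test could therefore only come out lower in MPs, and its direction is no separate support.

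The entries whose standard levels ran most like the members' were named by Spearman's rho over the 9 libraries, among 243 entries that averaged at least 50 CPM in a fraction. For mmu-miR-324-5p these were mmu-miR-24-2-5p (rho 0.97), cgr-miR-328 (0.95), rno-miR-125b-2-3p (0.92), cgr-miR-29c-3p (0.90) and cgr-miR-30e-5p (0.88). The first of them averaged 121 ± 90.7 CPM in exosomes, 28.1 ± 0.570 CPM in MPs and 18.6 ± 12.4 CPM in cells, with a wide spread in exosomes. For cgr-miR-324-3p they were cgr-miR-214-3p (0.98), cgr-miR-181b-5p (0.97), cgr-miR-22-3p (0.97), cgr-miR-377-3p (0.97) and cgr-miR-450a (0.95). Both arms gave a rho of 0.75 with each other, and both 5p entries 0.70. The points share library, depth and fraction, so these values describe the 9 libraries only.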

How the data were processed

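Small RNA reads of 27 libraries had been counted per mature miRNA entry by the authors; the deposited values used are raw read counts. Grouping was by mature sequence, with trimming and a length limit for stressed libraries, per the file headers. FastQC 0.10.1 and cutadapt 2.8 are named in the submitters' processing notes. No source used here names the counting tool. The 81 other columns of per-sample values were not used.

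CPM is the count over the library's summed count. Entries were tested with edgeR 4.0.16 in R 4.3.3 (quasi-likelihood, TMM, filterByExpr) over 351 entries of 9 standard libraries, 332 of 18 stressed libraries and 420 of all 27, with Benjamini-Hochberg adjustment and a threshold of 0.05. SEs derive from the F statistic. Scripts were tested on simulated data, with the same dispersion for every fit. The fitted biological coefficient of variation, the spread between libraries, was 0.301 in the standard, 1.38 in the stressed and 1.12 in the fit of all libraries. The simulated spread was near that of the standard fit only, so the other fits were not checked at their own spread. DESeq2 1.42.0 was an alternative.

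Totals of 26516 to 10374430 counts set the precision; intervals are exact binomial (95%), and a count of 0 allows 3 counts, counting error only, since PCR reads are not independent molecules. Groups at 0 have bounds against the group's floor and no fitted fold. The other group enters a bound at its level over summed libraries, without its own error.

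Members, lists and tests were chosen with earlier results of these data known. Named were both members, all other miR-324 entries, miR-125b-5p and miR-326 entries, the 5 entries most like each member and the 3 miRNAs with the largest arm shift in each direction. Replicate numbers paired standard MPs with standard cells (correlations of deviations 0.404, 0.230 and 0.274 for replicates 1, 2 and 3), and in no other pair of fractions did every number exceed 0.1; the block moved no value of that pair by more than the spread between replicates. No 2 libraries were identical. A planned permutation test of the stressed arm ratios is not given, the 5p entry being at 0 in all ammonia libraries. The test of the MP minus cell difference between stresses was added after the data were seen.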

Additional observations from a re-analysis of the deposited data

Results flagged for a closer look

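The vesicle to cell difference of miR-324 had opposite signs in different cultures, with no overlap between the libraries of the fractions compared. For cgr-miR-324-3p the mean level of exosomes minus that of cells was −170.8 CPM in osmotic, −152.1 CPM in ammonia and 215.4 CPM in standard culture. For MPs minus cells it was −170.8 CPM in osmotic and 96.76 CPM in standard culture. For mmu-miR-324-5p exosomes minus cells came to −29.01 CPM in osmotic and 61.68 CPM in standard culture. In that osmotic pair the lack of overlap rests on 1 count, or 0.122 CPM, in osmotic cells replicate 1. A count of 0 in osmotic exosomes still allows 18.9, 60.0 and 113 CPM in replicates 1, 2 and 3, so that order is not established. These differences between cultures were not tested, and culture cannot be told apart from kit and pool. Over all entries tested, the median log2 fold change against cells was −3.75 in osmotic exosomes, −7.05 in osmotic MPs and −5.23 in ammonia exosomes. In standard culture it was +0.09 in exosomes and +0.07 in MPs. In osmotic exosomes, osmotic MPs and ammonia exosomes the median entry thus fell below cells as well, so a fall there was not particular to miR-324. Counted from the highest fold change, cgr-miR-324-3p ranked 328th of 332 entries in osmotic exosomes, 313th in osmotic MPs and 199th in ammonia exosomes. The osmotic ranks rest on 0 counts in the vesicles. In ammonia MPs the median against cells was −1.43, and cgr-miR-324-3p stood at +0.87.

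Between the stressed cultures, made with 1 kit, the MP minus cell difference of cgr-miR-324-3p did not differ past the threshold (edgeR, adjusted p = 0.0779, unadjusted p = 0.00203; 1 of 332 entries passed). In that pair osmotic MPs were at 0 in 3 of 3 libraries and ammonia MPs lay above all ammonia cells in 2 of 3.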

How the results depend on the processing

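Of 241 alternative values for 24 results, 211 kept their direction and side of the threshold or stayed within the spread between replicates. That spread (log2) was 4.38 for the arm ratio of osmotic cells and 3.43 for the 3p arm in ammonia against standard MPs. For the 5p arm in osmotic against standard cells it was 2.52. Values of these results could shift far and still be counted as kept. Of the standard fold changes (log2), the 3p arm in MPs against cells was 1.05 without a filter on low counts. Left-out libraries gave 0.84 to 1.14 there, 0.30 to 0.65 for exosomes against MPs and 1.17 to 1.63 for exosomes against cells; for the 5p arm they gave 1.00 to 2.32 for exosomes against MPs, 0.99 to 2.32 against cells and 0.00 to 0.24 for MPs against cells. The replicate block put the 3p arm at 0.87 for MPs against cells. For the 3p arm in osmotic cells against standard cells RLE scaling, library size alone, no filter and DESeq2 gave 0.087, 0.65, 0.56 and 0.40, and left-out libraries 1.51 to 1.75; for ammonia cells they gave 0.11, 0.50, 0.82 and 0.70, and 1.62 to 1.99. Among adjusted p-values of the 3p arm (edgeR), osmotic MPs against cells gave 0.0845 without a filter and 0.0280 to 0.0572 with a library left out. Osmotic against ammonia MPs gave 0.0609 with the replicate block and 0.0178 to 0.0863 with a library left out. Whether replicate numbers pair libraries of different cultures was not checked. Ammonia exosomes against MPs ran from 0.0472 to 0.251 and ammonia MPs against cells from 0.435 to 1, turning sign without MPs replicate 1. Osmotic against ammonia cells turned sign with library size alone (adjusted p = 0.9986) and without a filter (adjusted p = 0.972), and never passed. With all species' entries summed, the log2 arm ratio was −1.47 in standard exosomes, −2.67 in MPs and −2.06 in cells, and −0.61 for MPs minus cells. The cause of these shifts was not tested, apart from the entries or libraries each setting adds or drops. Depth limits standard cells, with 58 counts of both arms, and osmotic exosomes, where a count of 0 over the group allows up to 12.7 CPM.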
